A study of Mus musculus with 9 samples.

Results

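A set of 10 genes of the desmin filament and of the muscle ankyrin repeat and LIM proteins was followed in mouse cells re-isolated from muscle after engraftment and in adult satellite cells. It holds Des, Nes, Ankrd1, Ankrd2, Ankrd23, Csrp1, Csrp2, Csrp3, Tcap and Ldb3. Its members were all spots of the arrays, control spots left out, whose gene name in the scanner tables was one of these 10 symbols. That rule gave 10 of 27745 gene names, 13 of 41174 probes and 31 of 43379 spots on each array. Ankrd23 had 2 probes, Ldb3 had 3 and the other genes had 1 each, and the Des and Nes probes were each printed in 10 spots. The genes were selected on measured values of the same arrays, since the low level of Ankrd1 in the re-isolated cells was known when the set was drawn up. For these members the differences from satellite cells are therefore a description, with no p-value, and calls of the fit there are only counted beside the share of all probes. Tests are read for the difference between the 2 re-isolated lines and for companion genes outside the set. The companion lists were also chosen with earlier results of these data known, which limits what their adjusted p-values can show.

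Desmin is the main intermediate filament protein of muscle and ties the Z-discs of neighbouring myofibrils to each other and to the cell membrane, while nestin is an intermediate filament protein of progenitor cells. The muscle ankyrin repeat proteins are stretch-responsive proteins that bind titin in the I-band and also enter the nucleus, and the cysteine- and glycine-rich LIM proteins bind the actin cytoskeleton and transcription factors. Telethonin, the product of Tcap, caps titin at the Z-disc, and Ldb3 codes for a PDZ and LIM protein that binds alpha-actinin there.

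The study measured mononucleated cells of 2 engrafted lines, iPax3 and iPax7, which its title describes as myogenic progenitors made from pluripotent stem cells, and set them against satellite cells, which are the stem cells of adult muscle fibres. Each group had 3 single-colour Agilent arrays. Both re-isolated groups carry the strain label NSG/NSGmdx4cv, and the satellite cells carry Pax7-ZsGreen. All 3 groups are labelled tibialis anterior and 3 months-old. Per the labels, each line's 3 mice and 3 independent experiments gave 1500 sorted cells, whose RNA went through SuperAmp amplification and Cy3 labelling before hybridisation. The labels do not give the sort gate, nor whether each array holds RNA of separate mice, so the spread between arrays may be partly technical.

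All levels below are processed signals in log2 after subtraction of the array's own 75th percentile, so that 0 is that percentile and 1 unit is a factor of 2. Levels of different probes are not set against each other, because a probe's brightness depends on its own sequence. Between 56.5% and 79.7% of the probes of an array, control spots left out, were well above background. Strain, slide and scan day all separated the satellite cells from the re-isolated cells and cannot be told apart from the cell type. The 3 iPax3 arrays shared a slide with iPax7 replicate 1, iPax7 replicates 2 and 3 shared another, and each satellite array had its own. All 13 probes passed the filter, which asked for a signal well above background on 3 or more of the 9 arrays. Satellite replicate 1 was scanned on another day than satellite replicates 2 and 3. On it 79.7% of probes were well above background, against 56.7% and 60.4%. Over the filtered probes its mean correlation was 0.58 with the other satellite arrays and 0.62 with the re-isolated arrays. For satellite replicate 2 these values were 0.61 and 0.54, and for replicate 3 0.61 and 0.53. The cause was not tested. In bulk RNA, fewer cells of a type and less RNA per cell cannot be told apart.

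Markers were read first, because several members are also made in other muscle cells. The mean level of 9 satellite cell markers lay between 2.06 and 2.51 in the satellite arrays and between -1.73 and -0.62 in the 6 re-isolated arrays. Pax7, the defining factor of satellite cells, read 2.89, 3.53 and -0.66 in satellite replicates 1 to 3, the last of which lies below the highest re-isolated array at -0.53, although Cdh15, a satellite cell cadherin, read 4.72 on that satellite array. The mean level of 9 fibro-adipogenic progenitor and fibroblast markers ran the other way, from 4.19 to 5.56 in the re-isolated arrays and from -0.78 to 0.34 in the satellite arrays. For 12 pericyte and smooth muscle markers the mean was between -0.45 and 0.36 in re-isolated arrays and between 0.22 and 0.94 in satellite arrays. On each array 10 to 12 of the 12 were above background. The mean of 11 fibre markers overlapped between groups, with -1.60 to 0.04 in the re-isolated and -1.34 to -0.64 in the satellite arrays. The mean of 7 Schwann cell and glia markers separated the groups, at -1.32 to -0.38 in re-isolated and -0.02 to 1.06 in satellite arrays. On each array 6 or 7 of the 7 were above background. Their defining factor Sox10 overlapped, at 0.00, -1.11 and 0.04 in satellite cells against -1.71 to -0.80 in the re-isolated arrays. The mean of differentiating myoblast markers lay between -1.22 and -0.51 in the re-isolated and -0.95 and -0.07 in the satellite arrays. In the same order, that of endothelial markers lay between -4.20 and -0.30 and between -3.25 and -0.46. That of leukocyte markers lay between -2.26 and -0.73 and between -2 and -1.28. These means all overlapped between the re-isolated and satellite arrays. The part of these cell types in the members' levels was not tested.

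The sequences that were measured are shown for the probes on which the contrasts turn, each as the first 30 bases of its 60-base probe, 5′ to 3′, as the scanner tables give it. Coordinates are those of the array annotation on the mouse build mm8.

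Des, plus strand of chr1:75249977-75250202: cccgggatggagaggttgtcagcgaggcta
Ankrd1, minus strand of chr19:36177463-36177522: cccctttgtgttctcacttgcataaagcta
Csrp1, plus strand of chr1:137568203-137568262: aagggagatcctaatgaataccttgaccaa
Csrp2, plus strand of chr10:110343420-110343479: acagagaatctccattaccaaactgcagat
Csrp3, minus strand of chr7:48698714-48700628: gagtctacaaatgtcactgacaaggatggg
Ankrd23 probe A, minus strand of chr1:36474937-36474996: ttgttatgacgacgacttgaagaacctgac
Ankrd23 probe B, minus strand of chr1:36475239-36475298: actaggctctgtaggccctacacactgagg

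The Des and Csrp3 probes cover 226 and 1915 bases of the genome with 60 bases of sequence, so both are interrupted there, while the other 11 probes lie in 1 uninterrupted stretch. Probes of the 3 Csrp paralogs shared no run longer than 6 bases with each other, and those of Ankrd1, Ankrd2 and Ankrd23 none longer than 7. The 2 Ankrd23 probes lie 242 bases apart on the same strand.

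Des was lower in both re-isolated lines than in satellite cells. Its levels were -1.28, -1.05 and -1.26 in iPax3 replicates 1 to 3, -0.67, -0.94 and 1.36 in iPax7 and 3.27, 2.60 and 3.20 in satellite cells. Every satellite array was above every re-isolated array, and iPax7 replicate 3 stood above the other 5 re-isolated arrays. The difference from satellite cells was -4.22 ± 0.80 (SE, n = 3 arrays a group) for iPax3 and -3.11 ± 0.80 for iPax7. The order of the groups was satellite, iPax7, iPax3, and the 2 lines did not overlap either, but their difference of 1.11 ± 0.80 (95% interval -0.70 to 2.92) did not pass limma's test (adjusted p = 1). Within the slide that holds iPax7 replicate 1 and all iPax3 arrays, that difference was 0.53. Without iPax7 replicate 3 it was 0.39, and without iPax7 replicate 2 it was 1.54. The SD over the Des spots of 1 array, which covers printing and scanning and not the spread between samples, was between 0.03 and 0.089.

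Nes differed little between the groups. It read -2.78, -2.77 and -3.80 in iPax3, -3.06, -3.99 and -4.13 in iPax7 and -3.38, -3.33 and -1.63 in satellite cells. The ranges overlapped in all 3 comparisons, with satellite replicate 3 above the other 8 arrays. The difference from satellite cells was -0.34 ± 0.80 for iPax3 and -0.95 ± 0.80 for iPax7, and the 2 lines differed by -0.61 ± 0.80 (95% interval -2.42 to 1.19, adjusted p = 1).

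**Figure D1:**
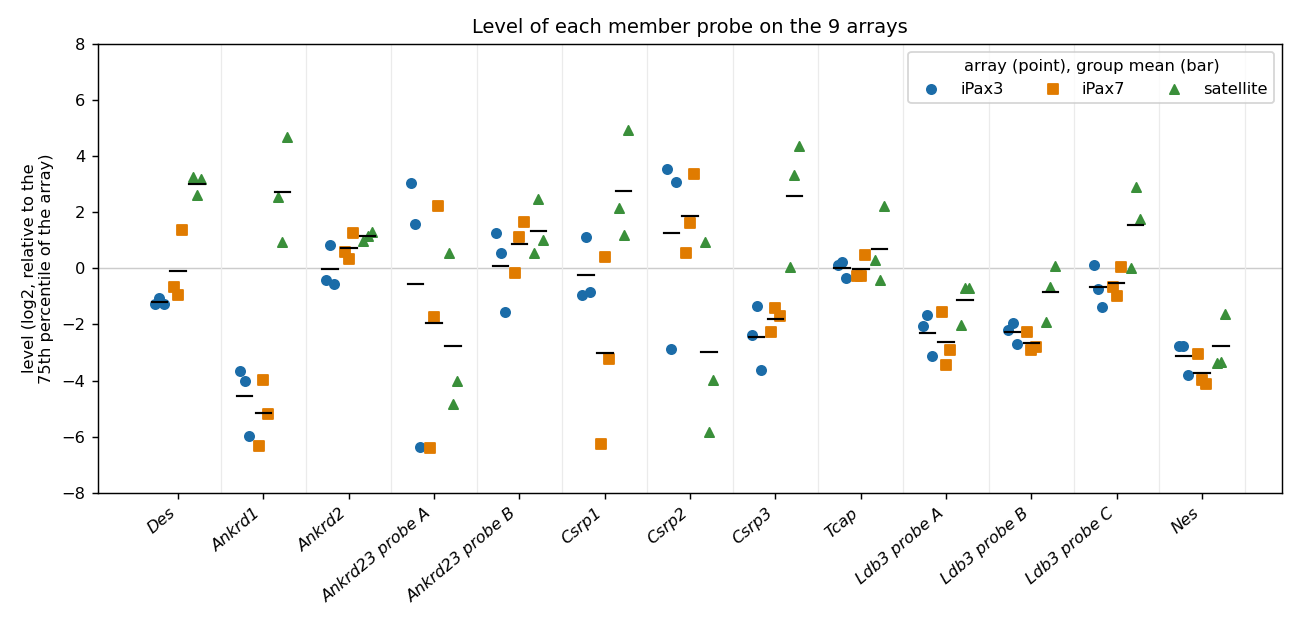
Level of each of the 13 probes on each of the 9 arrays (vertical axis, log2 above the array's 75th percentile), with iPax3 as circles, iPax7 as squares, satellite cells as triangles and group means as bars. Des, Ankrd1 and Csrp3 have every satellite array above every re-isolated array, with satellite means of 3.02, 2.74 and 2.58, while Nes and Tcap overlap.

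Ankrd1 codes for the cardiac ankyrin repeat protein, which in skeletal muscle is induced by stretch and injury. It read -3.67, -4.02 and -5.98 in iPax3, -6.32, -3.98 and -5.21 in iPax7 and 2.56, 0.95 and 4.70 in satellite cells. Its groups did not overlap, and the lowest satellite array stood above the highest re-isolated array. The probe was well above background on all 3 satellite arrays, on 2 iPax3 arrays and on 1 iPax7 array, so part of the low values lie at the background. The difference from satellite cells was -7.30 ± 1.15 for iPax3 and -7.91 ± 1.15 for iPax7. With normexp background correction it was -4.93 and -4.92, and in the deposited value table -5.73 and -5.99. The 2 lines overlapped and differed by -0.61 ± 1.15 (95% interval -3.21 to 1.99, adjusted p = 1).

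Ankrd2, the ankyrin repeat gene of slow fibres, showed a much smaller range. Its levels were -0.42, 0.85 and -0.55 in iPax3, 0.60, 0.32 and 1.27 in iPax7 and 0.97, 1.14 and 1.31 in satellite cells. All iPax3 arrays were below all satellite arrays, whereas iPax7 replicate 3 lay within the satellite range. The differences were -1.18 ± 0.72 for iPax3 and -0.41 ± 0.72 for iPax7, against 0.77 ± 0.72 between the lines (95% interval -0.86 to 2.39, adjusted p = 1).

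Ankrd23 codes for the third muscle ankyrin repeat protein, and its 2 probes disagreed. Probe A read 3.06, 1.59 and -6.36 in iPax3, -6.40, -1.73 and 2.24 in iPax7 and 0.53, -4.84 and -4.02 in satellite cells. Each group thus held both high and very low arrays, and the probe was well above background on 2 of 3 arrays in each. Probe B read 1.26, 0.56 and -1.54 in iPax3, -0.17, 1.1 and 1.65 in iPax7 and 0.54, 2.46 and 1.02 in satellite cells, all well above background. The iPax3 difference from satellite cells was 2.21 ± 2.84 by probe A and -1.25 ± 0.99 by probe B, so no direction is given for this gene. For iPax7 it was 0.81 ± 2.84 and -0.48 ± 0.99.

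The 3 Csrp paralogs did not share a direction in their means. Csrp3, the muscle LIM protein of the Z-disc, read -2.36, -1.34 and -3.61 in iPax3, -2.27, -1.42 and -1.70 in iPax7 and 0.06, 3.32 and 4.36 in satellite cells. All satellite arrays were above all re-isolated arrays, with satellite replicate 1 nearest to them. The difference was -5.02 ± 1.16 for iPax3 and -4.38 ± 1.16 for iPax7; without satellite replicate 1 it was -6.28 and -5.64. The lines overlapped, at a difference of 0.64 ± 1.16 (95% interval -1.97 to 3.25, adjusted p = 1).

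Csrp1, the widely expressed smooth muscle and fibroblast paralog, read -0.95, 1.11 and -0.84 in iPax3, -6.25, 0.41 and -3.25 in iPax7 and 2.15, 1.18 and 4.95 in satellite cells. The satellite arrays lay above both lines, narrowly so between satellite replicate 2 and iPax3 replicate 2. The iPax7 arrays had an SD of 3.33, and the probe was well above background on 2 of the 3. The differences from satellite cells were -2.98 ± 1.66 for iPax3 and -5.79 ± 1.66 for iPax7, and iPax7 minus iPax3 was -2.80 ± 1.66 (95% interval -6.55 to 0.94, adjusted p = 1). The last value was -1.19 without iPax7 replicate 1, which read below the lowest signal well above background on its array (-4.16), -4.52 without iPax7 replicate 2, -1.26 with normexp background correction and -6.02 within the slide that holds both lines. Over all refits the differences from satellite cells ran from -3.77 to -1.86 for iPax3 and from -7.50 to -3.85 for iPax7.

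Csrp2, a LIM protein of smooth muscle and of mesenchymal cells, was the gene that ran the other way in its means. It read 3.54, -2.89 and 3.08 in iPax3, 0.56, 1.63 and 3.38 in iPax7 and 0.93, -5.85 and -3.98 in satellite cells. The groups overlapped, since iPax3 replicate 2 lay below satellite replicate 1 and iPax7 replicate 1 did too. The differences were 4.21 ± 2.08 for iPax3 and 4.82 ± 2.08 for iPax7, and 0.61 ± 2.08 between the lines (95% interval -4.08 to 5.31, adjusted p = 1). Over all refits the differences from satellite cells ran from 2.32 to 6.28 and from 2.64 to 6.77.

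**Figure D2:**
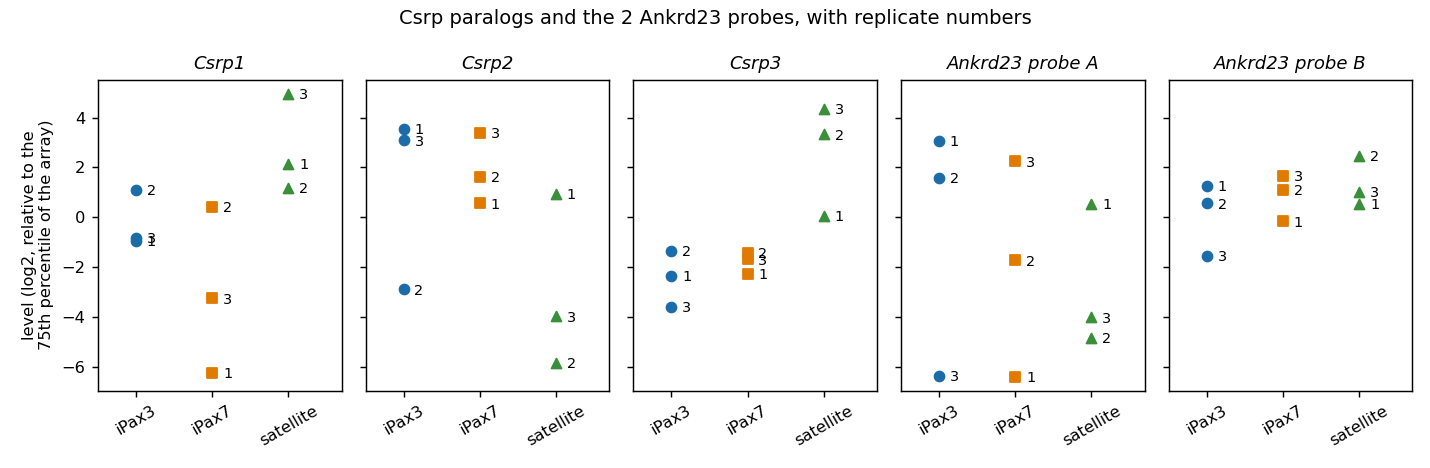
Levels of Csrp1, Csrp2, Csrp3 and the 2 Ankrd23 probes (vertical axis, log2 above the array's 75th percentile) by group, each point 1 array with its replicate number. The mean of Csrp3 is 2.58 in satellite cells against -2.44 in iPax3 and -1.80 in iPax7, Csrp2 runs from -2.97 in satellite cells to 1.24 and 1.86, and the Ankrd23 probe A points scatter over 9.47 units.

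Tcap did not separate the groups. It read 0.12, 0.23 and -0.33 in iPax3, -0.27, -0.29 and 0.48 in iPax7 and 0.28, -0.40 and 2.23 in satellite cells. Satellite replicate 3 stood above the rest, and the other 8 lay between -0.40 and 0.48. The differences were -0.69 ± 0.84 for iPax3 and -0.73 ± 0.84 for iPax7, and -0.04 ± 0.84 between the lines (95% interval -1.93 to 1.86, adjusted p = 1).

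Ldb3 was measured by 3 probes on the same strand, of which C lies 31976 bases from A. Probe A read -2.05, -1.68 and -3.14 in iPax3, -1.54, -3.46 and -2.91 in iPax7 and -2.01, -0.71 and -0.69 in satellite cells. Probe B, which lies 227 bases from probe A, read -2.19, -1.95 and -2.71, then -2.27, -2.91 and -2.80, then -1.93, -0.68 and 0.07. Probe C read 0.13, -0.73 and -1.37, then -0.67, -0.98 and 0.05, then 0.00, 2.90 and 1.75. On all 3 probes satellite replicates 2 and 3 stood above the 6 re-isolated arrays and satellite replicate 1 lay among those arrays on probes A and C. Probe B alone had no overlap, with satellite replicate 1 just above iPax3 replicate 2. The differences from satellite cells were -1.15 ± 0.84, -1.44 ± 0.76 and -2.21 ± 0.91 for iPax3 on probes A, B and C, and -1.50 ± 0.84, -1.81 ± 0.76 and -2.09 ± 0.91 for iPax7. Between the lines they were -0.35, -0.38 and 0.12 (each adjusted p = 1).

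**Figure D3:**
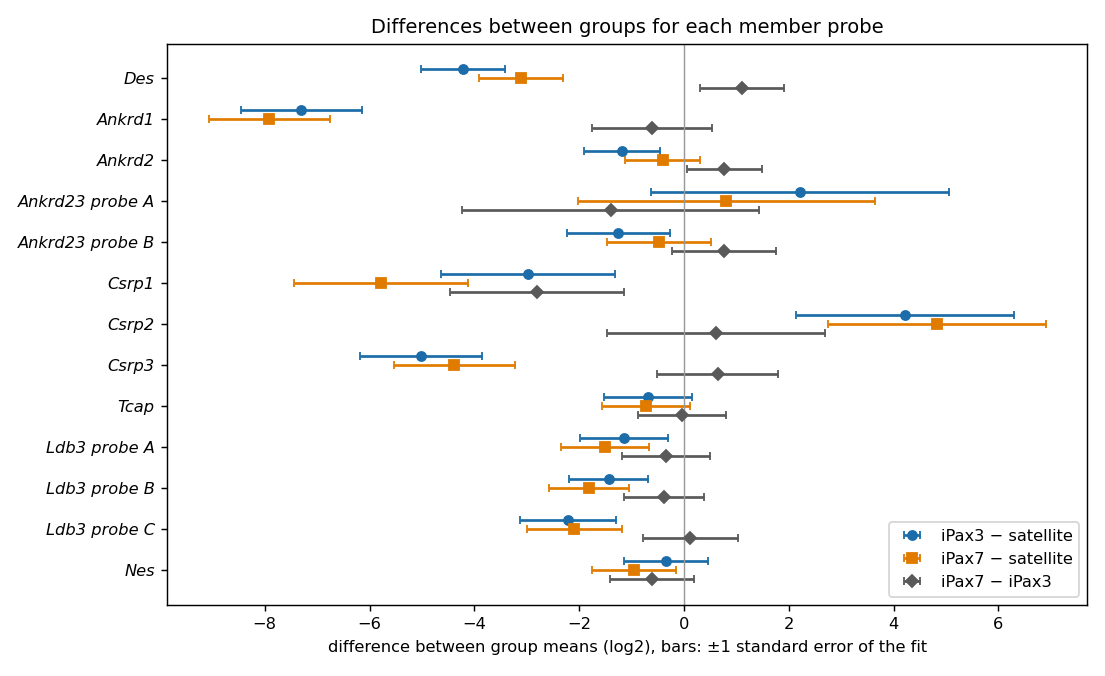
Difference between group means for each of the 13 probes (horizontal axis, log2 units), with bars of 1 standard error of the fit. In both comparisons with satellite cells 11 probes lie left of 0, Ankrd1 farthest at -7.30 and -7.91, while Csrp2 lies right of 0 at 4.21 and 4.82.

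Across the 13 probes, 11 were lower and 2 higher than in satellite cells in each line, the higher ones being Csrp2 and Ankrd23 probe A. Some of these signs turned with an array left out: Tcap reached 0.07 in iPax3 and 0.03 in iPax7 without satellite replicate 3, Nes 0.24 in iPax3 without that array, and in iPax7 Ankrd23 probe A reached -1.29 without iPax7 replicate 3 and probe B 0.08 without satellite replicate 2. The median difference was -1.25 for iPax3 and -1.50 for iPax7, against -0.032 and -0.061 over all 32953 probes. The groups did not overlap for 6 probes in iPax3 (Des, Ankrd1, Ankrd2, Csrp1, Csrp3 and Ldb3 probe B) and for 5 in iPax7 (the same without Ankrd2), all of them lower. Over all probes the groups did not overlap for 18.6% in iPax3 and 15.9% in iPax7. The fit called 1 member, Ankrd1, in each comparison, where 0.385% and 0.434% of all probes were called. The genes were selected with these contrasts in view and the Ankrd1 call repeats the value that led to the set, so nothing is read from these counts or from how they change. Ankrd1 was no longer called in iPax3 when any iPax3 array, iPax7 replicate 2 or 3 or satellite replicate 2 or 3 was left out (0 members), nor in iPax7 without any iPax7 array or satellite replicate 3 (0 members). With slide or scan day as a random block, or with only the 2 groups compared, 0 members were called in either comparison. Without satellite replicate 1, the members called in each comparison were 2, Ankrd1 and Csrp3. The calls over all probes moved too, from 127 in iPax3 and 143 in iPax7 to 671 and 709 without that array. In the leave-outs with 0 members they were 14 to 99 in iPax3 and 57 to 77 in iPax7. With slide or scan day as a random block, or only the 2 groups compared, they were 19 to 39 and 40 to 71.

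Between the 2 re-isolated lines, limma called 0 of the 13 probes at an adjusted p of 0.05, and 0% of all probes. At an unadjusted p under 0.05 it found 0 members and 1409 probes in all. In iPax7, 6 members were higher and 7 lower, with a median of -0.04 against 0.023 over all probes. The lines did not overlap for 1 member, Des, against 9.39% of all probes. The intervals above reach several log2 units for most genes, so a difference of that size was not detectable with 3 arrays a group.

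Genes of the same structures were read from 5 companion lists, of which 1 gene passed the test in 1 line. Over all probes 0.385% were called in iPax3 and 0.434% in iPax7, with median differences of -0.032 and -0.061. At shares this low, 0 calls in a list this short cannot set it apart from all probes. That holds for each list below with 0 called. Of 23 measured Z-disc and I-band partners, such as titin and the filamins, 0 were called in either comparison with satellite cells. In iPax3 17 of them were lower and in iPax7 18, with medians of -0.51 and -0.77. Flnc, a filamin of the Z-disc, differed by -2.41 ± 0.92 in iPax3 (adjusted p = 0.351) and -2.08 ± 0.92 in iPax7 (adjusted p = 0.425). Nexn, an actin-binding protein of the Z-disc, was above background on 0 of 3 iPax3, 1 of 3 iPax7 and 2 of 3 satellite arrays. Its difference was -3.27 ± 1.25 in iPax3 (adjusted p = 0.352) and -2.47 ± 1.25 in iPax7 (adjusted p = 0.493), where the ranges overlapped. With the lowest signal above background in place of lower iPax3 values, it was 4.99-fold lower in iPax3. That is not a firm bound, because not every satellite array was above background either.

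The 19 intermediate filament and linker genes had medians of 0.16 and -0.17, with 0 called in either comparison. Gfap, an intermediate filament gene of glia, read 1.16, 3.19 and 3.83 in satellite cells and between -1.51 and -0.27 in the re-isolated arrays. These ranges did not overlap, as with the mean of the Schwann cell and glia markers. Gfap differed by -3.42 ± 0.86 in iPax3 (adjusted p = 0.167) and -3.63 ± 0.86 in iPax7 (adjusted p = 0.152). Ppl, the linker periplakin, differed by -0.49 ± 0.76 in iPax3 (adjusted p = 0.814) and -3.10 ± 0.76 in iPax7 (adjusted p = 0.162).

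Of 20 measured other LIM protein genes, 0 were called, with medians of 0.51 and 0.88. Pxn, the focal adhesion protein paxillin, read between 2.26 and 4.22 in the re-isolated arrays and 1.11, -1.29 and -1.40 in satellite cells, a difference of 3.24 ± 0.92 in iPax3 (adjusted p = 0.217) and 3.84 ± 0.92 in iPax7 (adjusted p = 0.152). Ablim1, an actin-binding LIM protein, differed by 4.47 ± 1.43 (adjusted p = 0.273) and 5.40 ± 1.43 (adjusted p = 0.199). Among 7 measured muscle E3 ligase and titin kinase signalling genes 0 were called, with medians of 0.23 and 0.78. Gsk3b, a kinase, differed by 3.14 ± 0.97 (adjusted p = 0.258) and 2.99 ± 0.97 (adjusted p = 0.293), and Sqstm1, the autophagy receptor p62, by 1.40 ± 1.38 (adjusted p = 0.703) and 0.78 ± 1.38 (adjusted p = 0.865).

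Ankrd1 is a known target of the YAP/TAZ and SRF pathways, and 22 of 22 other genes of those pathways were measured. Their medians were -0.09 in iPax3 and -0.16 in iPax7, with 1 called higher in iPax7 and 0 in iPax3; over all probes 0.376% and 0.331% were called higher, and 0.0577% and 0.0546% lower. The gene called was Axl, a receptor tyrosine kinase. It read -0.35, -2.03 and -0.06 in iPax3, 1.34, 0.42 and -0.26 in iPax7 and -3.66, -5.52 and -5.65 in satellite cells, where it was well above background on 1 of 3 arrays. Its difference was 5.45 ± 0.91 in iPax7 (adjusted p = 0.046) and 4.14 ± 0.91 in iPax3 (adjusted p = 0.115). With normexp background correction these were 2.67 and 1.59, and they were 3.99 and 2.77 in the deposited value table. The iPax7 call held in 4 of 11 alternative settings and in 1 of 9 leave-outs, the one without satellite replicate 1, with an adjusted p from 0.0179 to 0.179 over them.

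**Figure D4:**
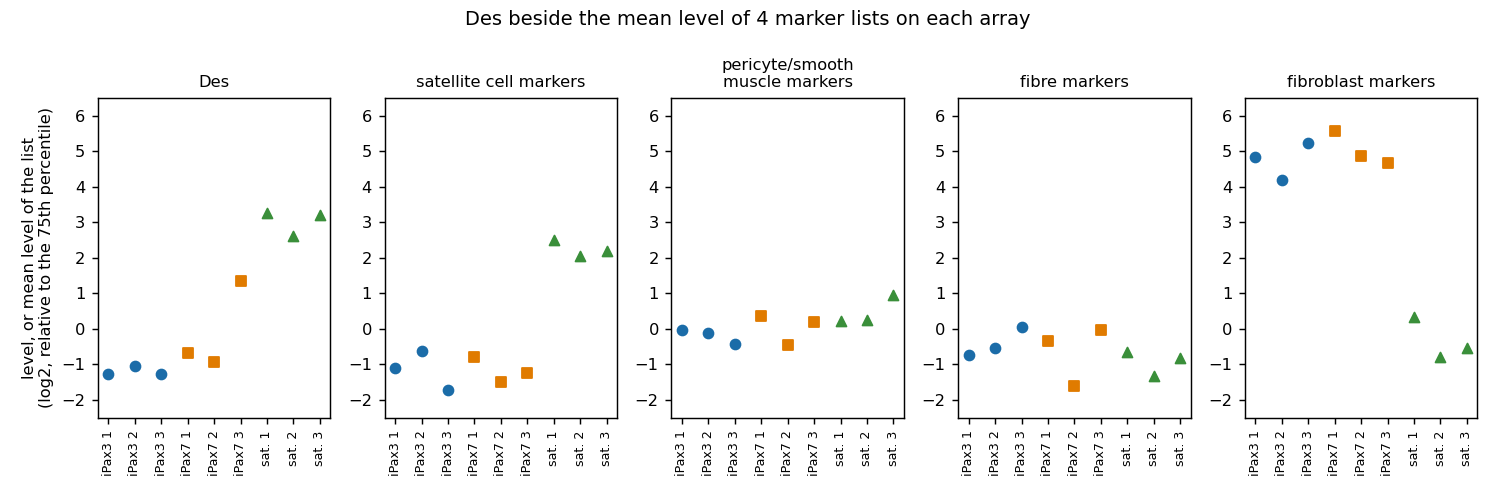
Level of Des and mean level of 4 marker lists on each of the 9 arrays (vertical axis, log2 above the array's 75th percentile; one panel each). Des and the satellite cell markers are highest on the 3 satellite arrays, where the markers reach 2.06 to 2.51, while the fibroblast markers are lowest there, at -0.78 to 0.34.

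The probes most like Des and Ankrd1 were taken by Pearson's r over the 9 arrays, among 32773 probes. For Des they were Vwc2l (0.974), Fgfr4 (0.962), Olfr1036 (0.960), Myh11 (0.957) and Selenoh (0.955). Myh11, the smooth muscle myosin, read between -0.84 and 0.66 in the re-isolated arrays and 2.49, 2.67 and 3.26 in satellite cells, and Fgfr4, a receptor of muscle progenitors, 3.58, 4.01 and 4.52 in satellite cells. For Ankrd1 they were Morn3 (0.970), Kcnk4 (0.969), Sil1 (0.968), Arhgef15 (0.966) and BC039142 (0.965). The satellite and re-isolated arrays stand apart on each of these probes, and both probes of a pair are read from the same 9 amplified samples, so r follows that distance and is a description only.

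The promoters were searched because Ankrd1 is a target of TEAD factors, which bind the MCAT element CATTCC, and Des of myogenic factors, which bind the E-box CAGCTG. RefSeq promoter entries on GRCm38.p6 were found for 8 of the 10 genes (12 entries; none for Csrp2 or Tcap), and the 250 bases before the start were read on both strands. CATTCC, or its reverse complement, was in 2 of the 12 entries (Ankrd1, and 1 of 2 of Ankrd23), against 12.6% of 32851 promoters of the same length. CAGCTG was in 1 of 12 (Des), against 13.0% of all. The CArG box of SRF was in 2 of 12, the 2 overlapping Ldb3 entries, against 1.5%. A match is a description of letters, not of binding.

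The Ankrd1 and Des promoters are shown, 5′ to 3′ on the gene's strand, with CATTCC (as its reverse complement GGAATG) or CAGCTG in capitals. The 2 Ankrd1 matches begin 210 and 123 bases before the start and the Des match 36 bases before it.

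Ankrd1, minus strand of chr19:36119845-36120094: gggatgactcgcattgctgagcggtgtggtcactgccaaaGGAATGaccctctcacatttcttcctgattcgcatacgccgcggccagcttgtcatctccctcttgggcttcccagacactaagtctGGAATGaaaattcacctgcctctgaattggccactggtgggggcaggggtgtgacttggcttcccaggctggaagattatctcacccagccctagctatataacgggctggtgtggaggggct
Des, plus strand of chr1:75360042-75360291: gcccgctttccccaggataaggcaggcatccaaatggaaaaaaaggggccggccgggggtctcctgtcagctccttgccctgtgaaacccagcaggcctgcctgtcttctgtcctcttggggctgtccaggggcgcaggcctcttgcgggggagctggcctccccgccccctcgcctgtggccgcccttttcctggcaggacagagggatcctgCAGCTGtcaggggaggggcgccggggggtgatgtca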

How the data were processed

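The 9 arrays, 3 in each of 3 groups, were read from the deposited scanner tables. Per the file headers, their intensity values (processed signal, mean signal and median local background) and flags were made by Agilent Feature Extraction 10.5.1.1 with detrending and background subtraction. The deposited value table holds log2 values of 31918 spots; its scaling between arrays is not given in the sources used here, so it was only an alternative. Processed signals were taken as log2 minus each array's 75th percentile over the non-control spots. Outlier-flagged spots (60 to 342 an array) were dropped, spots of a probe averaged, and 32953 probes well above background on at least 3 of 9 arrays kept. A probe's own flag says where it was well above background. limma 3.58.1 (R 4.3.3) fitted group means over all 9 arrays (6 residual degrees of freedom), with Benjamini-Hochberg adjustment over all kept probes at 0.05. The same code was tested on simulated data. Groups and replicate numbers came from the sample titles. Alternatives were another background correction, normalisation, filter, model or block and leaving out each array. The members and lists were chosen with earlier results of these data known; named genes were all members, and in each companion list the genes called or, with none, the 2 of smallest p, and the 5 probes most like Des and Ankrd1. Correlations of same-numbered arrays' deviations lay between -0.143 and 0.046. Values this low cannot exclude that the numbers pair arrays, so a replicate block was among the alternatives. RefSeq proteins were not used here.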

Additional observations from a re-analysis of the deposited data

How the results depend on the processing

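Each probe was refitted with each of the 9 arrays left out and, against satellite cells, under 10 to 12 alternatives, since not every probe was in each filtered set or in 1 probe a gene. In iPax3 against satellite cells, 1 member was called; the count was 2 with normexp background correction (Ankrd1 and Des) and 0 with only the 2 groups compared, with the replicate block and with slide or scan day as a random block, and 0 to 2 with an array left out. Probes above background on all 9 arrays left out Ankrd1 and gave 1 call, Des. In iPax7 against satellite cells the count of 1 became 0 with that filter, with only the 2 groups compared, with the replicate block and with slide or scan day as a random block, and ranged from 0 to 2 with an array left out. The difference of Ankrd1 stayed negative in all 20 refits that held the probe in each comparison, from -8.19 to -4.93 in iPax3 and -8.80 to -4.92 in iPax7. Des stayed negative in all 21, from -4.43 to -3.64 and from -3.83 to -2.68. Over all probes, the 127 and 143 calls became 671 and 709 without satellite replicate 1 and 24 and 75 with the replicate block; the lowest counts were 14 without iPax3 replicate 3 and 19 with slide as a random block in iPax3, and 40 with only the 2 groups compared and 50 without satellite replicate 2 in iPax7. Between the lines, 0 members were called throughout. There the sign turned for Ankrd1 with normexp (0.01) and for Ldb3 probe A with slide as a random block (0.16). With slide as a fixed block, chosen after seeing the data, it turned for Ankrd23 probe B (-0.26), Csrp2 (-0.68), Ldb3 probes A (0.74), B (0.01) and C (-0.02) and Nes (0.06). With an array left out the differences ran from 0.39 to 1.54 for Des, -1.32 to -0.04 for Ankrd1, -4.52 to -1.19 for Csrp1, 0.05 to 1.19 for Csrp3, -4.29 to 0.82 for Ankrd23 probe A, -0.05 to 1.35 for probe B, -1.45 to 1.76 for Csrp2, -0.29 to 0.10 for Tcap, -0.90 to 0.06 for Ldb3 probe A and -0.23 to 0.52 for probe C. The cause was not tested. Signals near background limit Ankrd1 in both re-isolated groups, Csrp1 on 1 iPax7 array, Csrp2 on 1 satellite array and Ankrd23 probe A in all groups.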
